A study of Drosophila melanogaster with 2 samples.

Results

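Small nucleolar RNA (snoRNA) genes and small nuclear RNA (snRNA) genes were examined in a map of MTF-1 binding sites made by chromatin immunoprecipitation and sequencing (ChIP-seq). All genes that the Ensembl annotation BDGP6.54 types as snoRNA or snRNA on the 6 chromosomes used were taken, which gave 301 genes of 18164 annotated genes, 269 for snoRNAs and 32 for snRNAs. The members are 46 to 444 bp long. The 94 genes that wholly contain a snoRNA gene on the same strand, called hosts, were examined with them, and 84 of these encode proteins. Nested hosts that contain the same snoRNA gene, such as Uhg7 in RpL23A, were counted separately. The series holds 1 group, mixed-sex Drosophila melanogaster embryos collected between 0 and 24 h, as biological replicates numbered 2 and 4. The embryos come from 1 transgenic line that stably expresses MTF-1 fused at its C-terminal end to GFP. The labels name no promoter for the transgene and no line without the tag, and they do not state that the replicates came from separate crosses. Titles and antibody labels describe immunoprecipitated libraries, but the free text of both samples calls them input controls. They were read as immunoprecipitates, since the deposited read-me lists a further file, shared by both, among the sources of each peak list.

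MTF-1 is a zinc-finger transcription factor that binds metal response elements and activates genes for metal storage and detoxification. A snoRNA guides the modification or cleavage of other RNAs: box C/D snoRNAs direct 2′-O-methylation of ribosomal RNA, and box H/ACA snoRNAs direct conversion of uridine to pseudouridine. Small Cajal body RNAs (scaRNAs), typed as snoRNA here, guide the same changes in snRNAs. Most fly snoRNAs are cut from introns, many of them in genes for ribosomal proteins or in non-coding genes named Uhg, so their transcription starts at the host's promoter. The snRNAs U1, U2, U4, U5 and U6 are the RNA cores of the spliceosome and are transcribed from promoters of their own. 7SK RNA, also typed as snRNA, holds the elongation kinase P-TEFb in an inactive complex.

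Peaks at snoRNA genes lay mostly at the starts of their hosts. Sequences of 4 strong host-start peaks follow, each as 101 bases centred on the peak's summit on the plus strand of dm6 from the RefSeq genome sequence, with a snoRNA gene of the same host below. Rank is the place of a peak by signal in the thresholded list, 1 being the strongest. Capitals mark a GGTCACAC site on either strand in a peak, box C (TGATGA) and box D (CTGA) in a box C/D snoRNA, and the terminal ACA in an H/ACA snoRNA.
RpS4 peak of rank 61, chr3L:13041753-13041853, plus strand: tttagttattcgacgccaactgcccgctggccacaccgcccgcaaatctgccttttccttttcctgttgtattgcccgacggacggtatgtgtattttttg
snoRNA:Psi28S-3327a in RpS4, chr3L:13042767-13042906, plus strand: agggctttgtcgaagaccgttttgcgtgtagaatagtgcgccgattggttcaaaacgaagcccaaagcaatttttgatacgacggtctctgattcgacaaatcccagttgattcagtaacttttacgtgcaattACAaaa
RpL14 peak of rank 64, chr3L:8600947-8601047, plus strand: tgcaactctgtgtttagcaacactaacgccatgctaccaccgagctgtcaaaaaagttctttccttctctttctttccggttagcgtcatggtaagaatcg
snoRNA:U49:66Da in RpL14, chr3L:8601473-8601552, plus strand: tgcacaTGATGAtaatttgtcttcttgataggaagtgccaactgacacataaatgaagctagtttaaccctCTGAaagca
RpL13A peak of rank 74, chr3R:5624396-5624496, plus strand: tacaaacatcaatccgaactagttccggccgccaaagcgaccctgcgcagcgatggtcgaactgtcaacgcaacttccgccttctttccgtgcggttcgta
snoRNA:Me28S-U2134a in RpL13A, chr3R:5625367-5625441, plus strand: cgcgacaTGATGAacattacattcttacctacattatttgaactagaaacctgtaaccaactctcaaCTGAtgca
RpL30 peak of rank 96, chr2L:19009202-19009302, plus strand: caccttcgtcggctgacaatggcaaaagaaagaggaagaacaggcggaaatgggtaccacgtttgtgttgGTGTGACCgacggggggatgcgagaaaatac
snoRNA:Me28S-A2113 in RpL30, chr2L:19008611-19008683, minus strand: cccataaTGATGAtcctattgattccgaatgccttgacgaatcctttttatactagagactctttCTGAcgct
The printed snoRNA gene lay 964 bp from the summit in RpS4, 476 bp in RpL14, 921 bp in RpL13A and 569 bp in RpL30. In each of these hosts the gene lay downstream of the summit, and the summit lay 2, 9, 28 and 15 bp from the host's start in the same order.

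Peaks at snRNA genes lay mostly inside the gene. The windows below, of 101 bases on the plus strand, are those of 6 of the 7 peaks with a summit within 1 kb of an snRNA gene. Capitals mark the longest run shared by the windows of both U1 copies, 29 bases, and the metal response element core GGGTGCA in the 7SKa gene.
U1:95Ca peak of rank 1448, chr3R:23859530-23859630, plus strand: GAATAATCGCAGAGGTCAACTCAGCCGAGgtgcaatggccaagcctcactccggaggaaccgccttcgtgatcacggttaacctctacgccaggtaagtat
U1:21D peak of rank 3546, chr2L:901482-901582, plus strand: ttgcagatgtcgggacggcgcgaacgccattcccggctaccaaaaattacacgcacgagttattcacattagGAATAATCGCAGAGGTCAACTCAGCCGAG
U4:39B peak of rank 1824, chr2L:21215084-21215184, plus strand: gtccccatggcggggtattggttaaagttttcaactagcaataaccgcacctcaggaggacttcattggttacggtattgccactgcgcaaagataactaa
7SKa peak of rank 1496, chr3R:7474711-7474811, plus strand: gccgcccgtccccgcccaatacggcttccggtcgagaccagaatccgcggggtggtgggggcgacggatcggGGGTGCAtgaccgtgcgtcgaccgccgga
peak of rank 85 beyond the 3′ end of 7SKa, chr3R:7473901-7474001, plus strand: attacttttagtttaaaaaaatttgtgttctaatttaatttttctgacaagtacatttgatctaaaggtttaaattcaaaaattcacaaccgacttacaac
peak of rank 1778 between U6 copies, chr3R:24557052-24557152, plus strand: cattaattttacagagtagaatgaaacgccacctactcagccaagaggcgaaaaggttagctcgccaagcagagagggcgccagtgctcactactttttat

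In the thresholded list there were 3587 peaks, of median width 344 bp. Its signal values, the authors' own for each peak, ran from 104.02 to 16205 with a median of 154. The list called on pooled reads and the lists of each replicate held 30000 candidate regions each, and ranks in replicates 2 and 4 are given by signal within those lists. Read depth is unknown, so intervals cover the counting of genes or peaks only. Each replicate has its own signal values, but the series holds 1 group and nothing to compare it with, so counts and shares are given as descriptions beside their background, and 1 peak can count for several neighbouring genes.

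A thresholded summit lay within 1 kb of 57 of the 269 snoRNA genes (21.2%; exact 95% interval 16.5 to 26.6%) and of 8 of the 32 snRNA genes (25%; 11.5 to 43.4%). Among 2081 other annotated genes no longer than 444 bp the share was 8.41%, and among 290 transfer RNA genes it was 11.4%. Of all bases on the chromosomes used, 4.91% lay within 1 kb of a thresholded summit. The shares of both classes lay above all 3 of these backgrounds, and the lower bound of the snRNA interval, 11.5%, was next to the transfer RNA share. The intervals treat genes that share a peak as separate, so they are no test against these backgrounds. The snoRNA share minus the snRNA share was -3.81 percentage points, with an interval (Newcombe) of -21.5 to 9.07. That interval covers 0, and the sign of the difference changed with the counting distance: within 500 bp the difference was -14.1 points and within 5 kb it was 35.4 points. Among candidate regions of the pooled list, before thresholding, 42.4% of snoRNA genes and 59.4% of snRNA genes had a region within 1 kb, against 43.2% of other short genes.

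**Figure D1:**
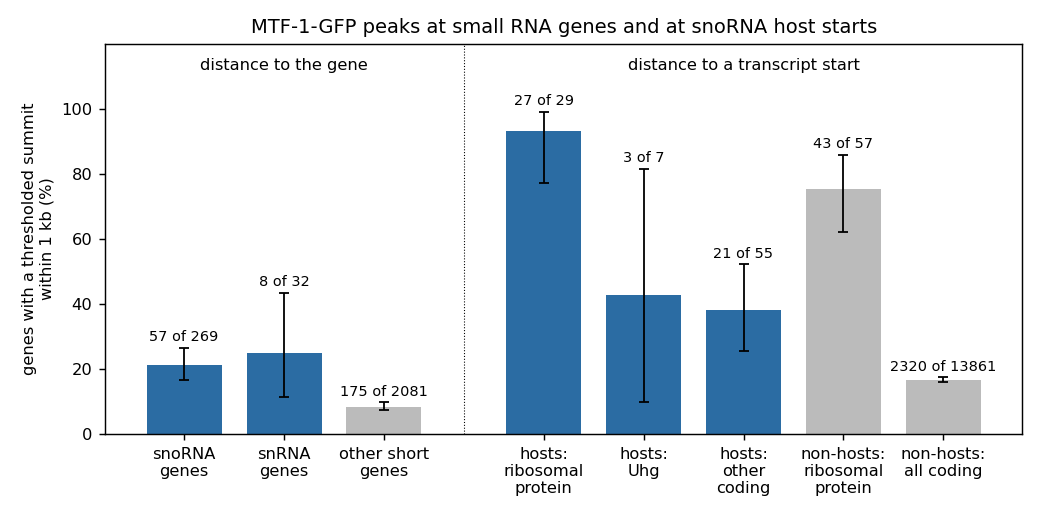
Share of genes (%) with a thresholded summit within 1 kb, with exact 95% intervals and counts above the bars; the 3 bars on the left measure distance to the gene and the 5 on the right to any annotated transcript start, with blue for small RNA genes and hosts and grey for other genes. Ribosomal protein hosts reached 93.1%, and protein-coding genes that host no snoRNA gene 16.7%.

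These shares rest on few places. The 57 snoRNA genes shared 36 peaks and the 8 snRNA genes shared 7, with 2 peaks common to both and 41 peaks in all. One peak served up to 4 snoRNA genes, those near the start of Uhg5, and the peak at the U6 cluster served 3 genes. When snoRNA genes less than 2 kb apart were joined, 33 of 109 loci had a summit (30.3%), and 6 of 23 snRNA loci had one (26.1%). A locus of several genes spans more bases than a single gene, and no share of other genes joined in this way is given. At the edge of the 1 kb limit, the nearest summit lay 994 bp from Psi28S-1175a, 975 bp from Psi18S-1347a and 968 bp from Me28S-U1848 just inside, and 1001 bp from lola-c, 1007 bp from Me28S-A982a and 1008 bp from Or-ACA7 just outside. The snoRNA count therefore depends on the limit, and 21 genes (7.81%) had a summit within 500 bp and 171 (63.6%) within 5 kb. Of other short genes, 5.48% had a summit within 500 bp and 25.1% within 5 kb.

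The snoRNA and snRNA genes stood differently to their summits. No summit lay inside any of the 269 snoRNA genes, which allows a share of up to 1.36%. Of the 57 snoRNA genes with a peak, 50 had their strongest summit upstream and 7 downstream, at a median distance of 653 bp (61 to 994 bp). Summits lay inside 5 of the 32 snRNA genes, between 43 and 235 bp from the gene's 5′ end, and the median distance from the 8 snRNA genes to their strongest summit was 56.5 bp (0 to 908 bp). Peak intervals, as opposed to summits, overlapped 4 snoRNA genes (1.49%) and 6 snRNA genes (18.8%), without a share of other short genes to set beside them. For nearest starts, those of snoRNA genes, snRNA genes and transposable elements were left out. Of the 36 peaks at snoRNA genes, 28 then had a host's start as the nearest transcript start and 27 had one within 500 bp. The 28 include the peak of rank 974, which lay 3065 bp from the Uhg5 start and 413 bp from the 5′ end of Or-CD4. Of the 7 peaks at snRNA genes, 1 lay within 500 bp of another gene's start, that of rank 85 at CG1142.

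By the class that the gene symbol gives, 32 of 109 box C/D genes (29.4%) and 14 of 114 box H/ACA genes (12.3%) had a summit within 1 kb, as did 3 of 16 scaRNA genes and 8 of 30 genes with other symbols. The hosts of both large classes had a peak at a start at like shares, 25 of 38 hosts of box C/D genes (65.8%) and 22 of 29 hosts of box H/ACA genes (75.9%). The genes themselves lay at different depths in their hosts: box C/D genes at a median of 1070 bp from the host start, with 47.5% under 1000 bp, and box H/ACA genes at 1580 bp, with 23.8% under 1000 bp. The part of that distance in the difference between the classes was not tested.

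Inside their hosts, snoRNA genes near the host start were mostly those counted, which the 1 kb limit partly fixes. A summit lay within 1 kb of 19 of 35 genes under 500 bp from a host start, 22 of 51 genes from 500 bp to under 1000 bp, 5 of 75 from there to under 2000 bp and 3 of 86 at 2000 bp or more. In ribosomal protein hosts the counts were 12 of 20, 16 of 27, 0 of 23 and 0 of 6 over the same bins. The 0 beyond 1000 bp follows largely from the 1 kb limit, since the summits of these hosts sit at their starts. Distance was taken to the nearest start of any host. The 4 snoRNA genes of RpL23A, none with a peak, were thus binned by the start of Uhg7, which lies inside RpL23A, at 60 to 785 bp. Likewise Psi18S-531 in RpL22, without a peak, was binned by the start of the non-coding gene CR42491. Other starts of the same host acted alike in RpS5a, RpL17, RpL28, RpL7A and RpS7. Psi28S-1135a in RpS5a lay 447 bp from a start but 1544 bp from the nearest summit, and Psi28S-1060 in RpL17 166 and 1301 bp. A gene without a peak in the bins below 1000 bp thus need not lie near a start that has a summit. In hosts other than ribosomal protein genes, Uhg genes included, the counts were 7 of 15, 6 of 24, 5 of 52 and 3 of 80. Taken by host, a summit lay within 1 kb of 28 of 76 snoRNA genes in ribosomal protein genes (36.8%) and 13 of 44 in Uhg genes (29.5%). In hosts of neither kind the count was 8 of 127 (6.30%; 2.76 to 12.0%), with an interval that covers the 8.41% of other short genes.

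**Figure D2:**
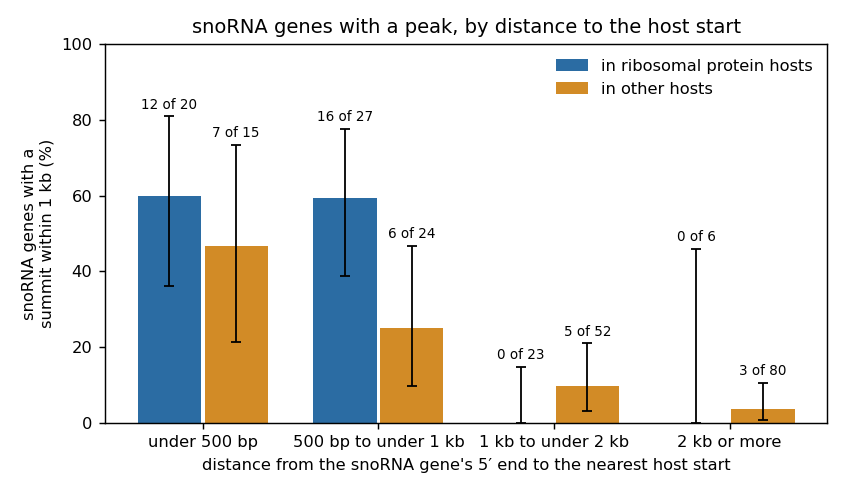
Share of hosted snoRNA genes (%) with a thresholded summit within 1 kb, with exact 95% intervals and counts above the bars. Distance (bp) runs from the gene's 5′ end to the nearest annotated start of any of its hosts, which need not be the start with the summit. Ribosomal protein hosts are blue, and all other hosts, Uhg genes included, are orange. Peaks were counted at 12 of 20 and 16 of 27 genes in the bins below 1000 bp of ribosomal protein hosts and at 0 of 23 and 0 of 6 beyond, where the 1 kb limit leaves little room for a count.

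Counted at the hosts' own transcript starts, 51 of the 94 hosts had a thresholded summit within 1 kb (54.3%; 43.7 to 64.6%). The share was 48 of 84 among protein-coding hosts (57.1%), against 16.7% of the 13861 protein-coding genes that host none. Among the non-coding hosts, 3 of 7 Uhg genes and 0 of the 3 others had one, against 9.66% of 3251 non-coding RNA genes that host none. Protein-coding hosts had a median of 2 annotated starts and non-hosts of 1, which gives hosts more places to be counted. With each peak given to its nearest start alone, the shares were 50% of hosts and 12.3% of protein-coding non-hosts. Over all candidate regions of the pooled list they were 86.2% of hosts and 55.6% of non-hosts.

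Ribosomal protein genes, whose products build the ribosome that the snoRNAs help to mature, made up most of these. A peak lay at a start of 27 of 29 ribosomal protein hosts (93.1%; 77.2 to 99.2%) and of 43 of 57 ribosomal protein genes that host no snoRNA gene (75.4%; 62.2 to 85.9%). The intervals of the 2 shares overlapped, which does not show that the shares are alike. Ribosomal protein hosts had a median of 2 annotated starts and ribosomal protein non-hosts of 1, which gives these hosts more places to be counted. Of the 55 other protein-coding hosts, 21 had a peak (38.2%; 25.4 to 52.3%), against 16.5% of protein-coding genes that are neither ribosomal protein genes nor hosts. Without ribosomal protein genes, 24 of 65 hosts had a peak (36.9%). Hosts of 1 snoRNA gene had a peak in 25 of 55 cases, hosts of 2 to 4 in 17 of 24 and hosts of 5 or more in 9 of 15.

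Summits at ribosomal protein hosts sat on the start itself. The 27 summits lay 0 to 64 bp from a start of the host (median 15 bp), 17 of them upstream, and the host's own start was the nearest of all annotated starts for 26. The 3 Uhg summits lay 1, 43 and 64 bp from a start. In the 21 other coding hosts the distance was 11 to 850 bp (median 110 bp), 10 lay within 100 bp, and the host's own start was the nearest for 14. For the remaining 7 another gene's start was nearer, so those peaks cannot be given to the host by position.

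The peaks at host starts ranked high. Their median rank was 506 of 3587 and 42 of 51 (82.4%) were in the stronger part of the list, down to rank 1793. Ribosomal protein hosts had a median rank of 253, near the 277 of ribosomal protein genes that host none, other coding hosts 1001 and Uhg hosts 1305, against 1596.5 for protein-coding non-hosts. The strongest peak at each snoRNA gene had a median rank of 600 over 57 genes, and that at each snRNA gene 1778 over 8 genes, against 1794 for the whole list. The snRNA median thus lay at the middle of the list, with order-statistic bounds as wide as 85 to 3546, while those of the snoRNA median were 219 to 1305. From replicate 2 alone the snoRNA median was 612.5, the snRNA median 1482 and the host median 310.5. From replicate 4 alone they were 1079, 2214 and 702, so the snoRNA median from replicate 4 and the host median from replicate 2 each differed by over 1.5 times from that of the thresholded list.

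The strongest host peak was that of Uhg4, a non-coding gene whose introns carry 7 snoRNA genes. Its peak, at chr2R:9095084-9095371 on dm6, had rank 52 and a signal of 821, with rank 38 in replicate 2 and 92 in replicate 4. The summit lay 43 bp upstream of the Uhg4 start, and a metal response element core lay within 50 bp of it. Psi28S-2949, Or-aca5 and Me28S-G3255a, the first 3 snoRNA genes of Uhg4, lay 142, 455 and 766 bp from that summit. Uhg4 was high in both replicates.

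Next came ribosomal protein genes. The RpS4 peak had rank 61 and a signal of 756, with rank 18 in replicate 2 and 327 in replicate 4. RpL14, which holds U49:66Da and U49:66Db, had a peak of rank 64 with a signal of 733 (rank 68 in replicate 2, 83 in replicate 4). RpL13A, host of Me28S-U2134a and Me28S-U2134b, had a peak of rank 74 with a signal of 681 (59 in replicate 2, 132 in replicate 4). Both replicates ranked all of these high, and RpS4 showed the widest gap between replicates among them.

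RpL28, host of Or-CD11a, Or-CD11b and Or-CD11c, had a peak of rank 87 with a signal of 644 (31 in replicate 2, 347 in replicate 4). RpL30 had a peak of rank 96 with a signal of 630 (57 and 178 in replicates 2 and 4), which carries the GGTCACAC site printed above. RpL23A had the peak of rank 100, with a signal of 620 (54 and 157), yet its 4 snoRNA genes all lay over 1 kb from the summit. A strong peak at a host start thus did not always count for the snoRNA genes inside.

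CG1142 and Stt3A, outside the ribosomal protein group, also stood among the strongest hosts. CG1142, host of scaRNA:MeU5-C46, had the peak of rank 85 (signal 649; 146 in replicate 2, 71 in replicate 4), 170 bp upstream of its start and beyond the 3′ end of 7SKa. Stt3A, which encodes the catalytic subunit of an oligosaccharyltransferase, was counted for the peak of rank 104 (signal 609; 207 and 86 in replicates 2 and 4), but its start lay 417 bp from the summit and that of the neighbour bves 192 bp. A second Stt3A peak, of rank 163 and signal 503, lay 907 bp upstream of Me28S-U3344a. Both first-named peaks ranked better in replicate 4, unlike those of the ribosomal protein hosts.

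The remaining hosts of best rank were all ribosomal protein genes. Their ranks were 121 for RpL11, 136 for RpL4, 143 for RpL3, 184 for RpL10Ab, 216 for RpS12 and 219 for RpS16, with summits 6 to 36 bp from the start. Signal was 574 at RpL11 and 445 at RpS16, and the ranks of these 6 ran from 48 to 121 in replicate 2 and from 177 to 513 in replicate 4. At the weak end, RpL5 had a peak of rank 2017 and RpL15 one of rank 3431. RpL15 ranked 1964 in replicate 2 and 8206 in replicate 4. RpS20 and RpS9 were the ribosomal protein hosts without a peak, with best candidate regions of rank 6149 and 3859 in the pooled list.

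Ribosomal protein hosts differed from other hosts in how the replicates ranked them. Of the 25 ribosomal protein hosts whose peak had a region within 250 bp in both replicates, 25 ranked better in replicate 2, with a median rank of 119 in replicate 2 and 515 in replicate 4. RpS3A, on chromosome 4, had no such region in replicate 2, and RpL36A had none in replicate 4. Among other hosts 13 of 23 ranked better in replicate 2 (medians 1267 and 1365 in replicates 2 and 4), and among ribosomal protein genes that host no snoRNA gene 30 of 43 did (217 and 434). The 36 peaks at snoRNA genes, of which 35 had a region in both, ranked better in replicate 2 in 30 cases (308 and 990), against 44.7% of all peaks (1868.5 and 1765.5). The GC content of the 101 bp around the summit was 48.5% ± 5.63 at ribosomal protein hosts (SD, 27 peaks), 41.8% ± 9.91 at other hosts (24 peaks) and 40.2% ± 10.1 over all peaks. It was 46.2% ± 6.01 at ribosomal protein genes that host none (43 peaks) and 44.4% ± 8.51 at snoRNA genes (36 peaks). The part of GC content, and of the unknown depth of the replicates, in these ranks was not tested.

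**Figure D3:**
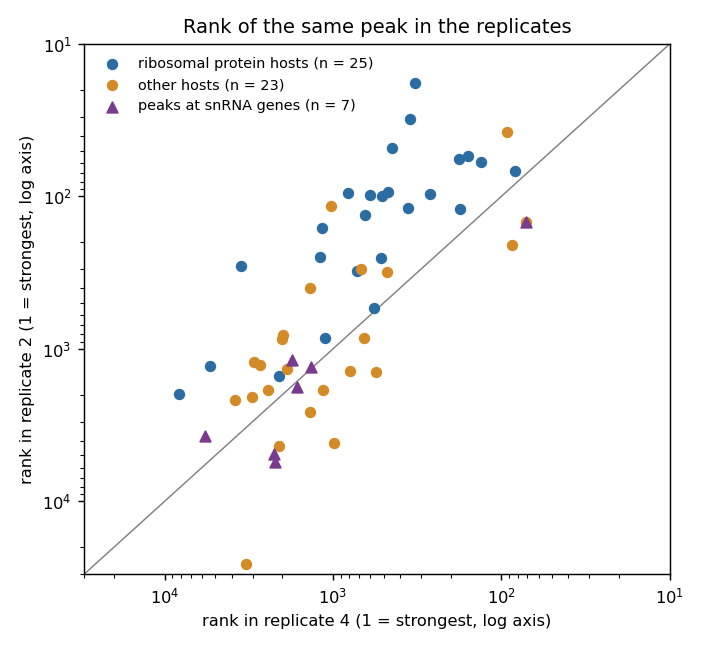
Rank of the same peak in replicate 4 (horizontal) and replicate 2 (vertical), on log axes with the strongest at the upper right, for ribosomal protein hosts (blue), other hosts (orange) and snRNA genes (violet triangles); the line marks equal rank. All 25 blue points lie above the line, as do 13 of 23 orange points and 3 of 7 triangles.

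Hosts with many snoRNA genes did not share 1 pattern. Arpc2, which encodes an Arp2/3 complex subunit and carries 17 snoRNA genes, had no thresholded peak, and its best candidate region at a start ranked 27160 in the pooled list, 13174 in replicate 2 and 9263 in replicate 4. Uhg1, with 16 snoRNA genes, also had none, and its best candidate ranked 6589 in the pooled list and 9993 in replicate 4, with none in replicate 2. In dom, a chromatin remodelling gene with 15 snoRNA genes, the start had a peak of rank 1734, and RpS5a, with 14, had a peak of rank 305. None of the 29 snoRNA genes of dom and RpS5a lay within 1 kb of a summit. Uhg5, with 11 snoRNA genes, had a peak of rank 1305 at its start and another of rank 974 lying 3065 bp downstream of the start, and 7 of its snoRNA genes were within 1 kb of one of them. The Uhg5 gene ends 2897 bp from its start, so the summit of rank 974 lay beyond it. The start peaks of dom, RpS5a and Uhg5 each had a metal response element core within 50 bp of the summit.

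The other hosts of 5 or more snoRNA genes were as mixed. Sf3b3, a splicing factor gene with 9, and Nop60B, which encodes the pseudouridine synthase of H/ACA particles and carries 7, had no thresholded peak. The best candidate at Sf3b3 ranked 7458 in the pooled list, 20024 in replicate 2 and 6692 in replicate 4. That at Nop60B ranked 4721 in the pooled list, and the replicates differed widely, with 1128 in replicate 2 and 21144 in replicate 4. CG10576 and the non-coding gene CR45184, with 5 each, had none either. CR45184 lies inside Sf3b3, and its 5 snoRNA genes are among the 9 of Sf3b3. The translation regulator gene kra, with 8, had a peak of rank 1884 at its start and another of rank 2817, 578 bp from its 5′ end. The RNA-binding protein gene Hrb98DE, with 7, had one of rank 3102 that lay at rank 25840 in replicate 2 and at 3271 in replicate 4. RpS7, with 7, had a peak of rank 362 near 1 of its snoRNA genes. RpL28 and RpS16, with 5 each, had 3 and 2 of them within 1 kb of their peaks. The start peaks of kra, Hrb98DE, RpS7, RpL28 and RpS16 had no metal response element core within 50 bp of the summit.

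**Figure D4:**
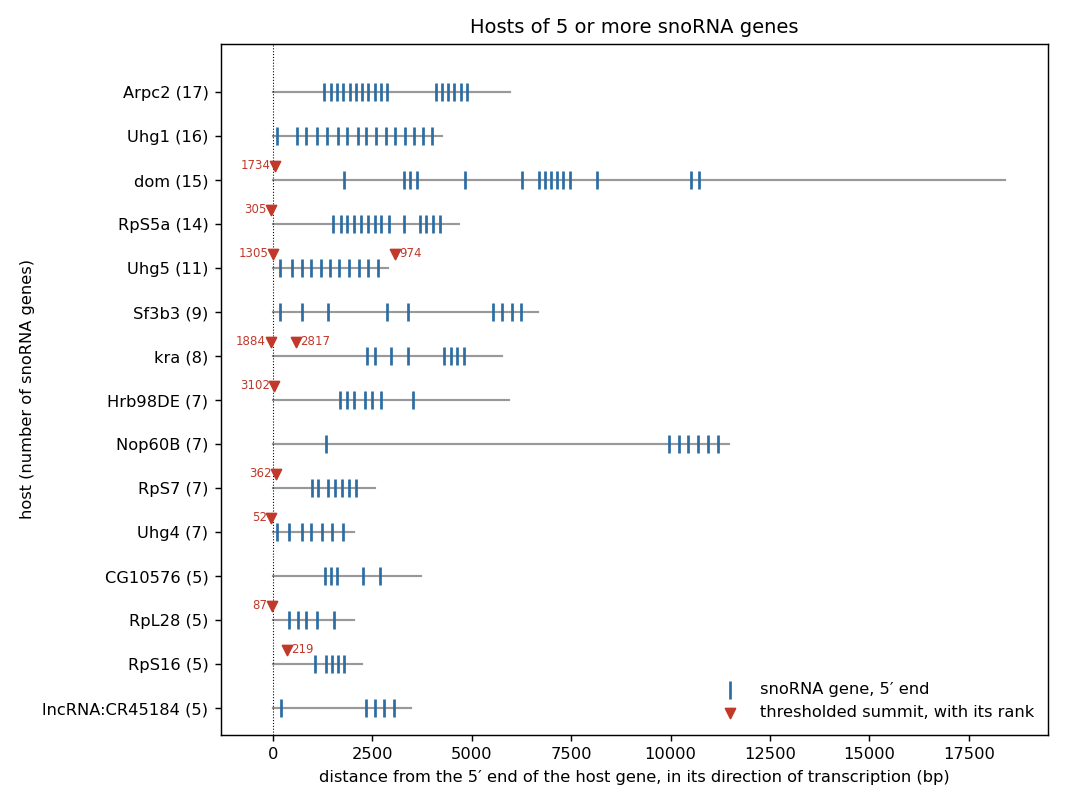
Hosts of 5 or more snoRNA genes, drawn from the gene's 5′ end (0 bp) in the direction of transcription, with the host as a grey line, snoRNA genes as blue ticks and thresholded summits as red triangles labelled with their rank. Summits lie near the 5′ end, apart from those of RpS16 at 346 bp, kra at 578 bp and Uhg5 at 3065 bp. The last lies beyond the gene end at 2897 bp, and 6 of the 15 hosts have no summit.

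Outside the 15 hosts of best rank, the strongest peaks at snoRNA genes again lay mostly in ribosomal protein genes. Me18S-C1831 in RpL27A had a peak of rank 268 (95 in replicate 2, 816 in replicate 4), Psi28S-2626 in RpS7 one of rank 362, and Psi28S-1232 in RpL17 one of rank 489 with a metal response element core. The snoRNA genes M and Me28S-G980 in sta, which encodes a protein of the small ribosomal subunit, shared the peak of rank 506. Or-aca2 in RpS6 had the peak of rank 548, whose nearest annotated start is that of the pseudogene CR33222 at 1 bp. The RpS6 peak also had a metal response element core. Psi18S-1275 in RpS29 had a peak of rank 761, and Me28S-G2703b, Me28S-G2703c and Or-CD4 shared the downstream Uhg5 peak of rank 974. All of these snoRNA genes lay downstream of their summit except those at the rank 974 peak.

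Of the 22 snoRNA genes with no host on the same strand, 8 had a peak (36.4%; 17.2 to 59.3%), at 4 summits. The share was 49 of 247 among snoRNA genes inside a host (19.8%; 15.1 to 25.4%) and 8.41% among other short genes. The gene 185 lay 230 bp from the summit of rank 600, whose nearest start was that of tRNA:Glu-TTC-1-5 at 149 bp. Psi28S-1153 and 2 neighbouring snoRNA genes shared the peak of rank 1326. MeU1b-A234, Or-ACA6 and Or-CD13 shared the peak of rank 1913, and MeU1:95C-A24 lay 444 bp from the weak peak inside U1:21D. These genes were few and clustered, so their share rests on 4 places.

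Among snRNA genes, U1, which recognises 5′ splice sites, had peaks at 2 of 5 copies. U1:95Ca had a summit 50 bp inside the gene at rank 1448 (signal 172; 1174 in replicate 2, 1750 in replicate 4). U1:21D had one 122 bp inside at rank 3546 (signal 105; 3750 and 5767), close to the end of the list. The 3 remaining U1 copies had candidate regions only.

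Each of U4 and U5, partners in the spliceosome's tri-snRNP, had 1 gene with a peak. U4:39B, 1 of 3 U4 genes, had a summit 44 bp inside at rank 1824 (signal 152; 1790 in replicate 2, 1628 in replicate 4). U5:63BC, 1 of 7 U5 genes, had one 43 bp inside at rank 2593 (signal 125; 5499 and 2214). None of the 6 U2 genes, whose RNA pairs with the branch site, had a peak, and 2 of them had a candidate region. The U4 peak held its rank in both replicates, and the U5 peak did not.

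The 3 U6 genes, which encode the catalytic snRNA of the spliceosome and are transcribed by RNA polymerase III, lie in 1 cluster, are identical in sequence and share the peak of rank 1778 (signal 154; 4873 in replicate 2, 2248 in replicate 4). Its summit fell between 2 of the genes, 113 bp upstream of U6:96Ac and 410 bp from the start of U6:96Ab, and 1014 bp from that of U6:96Aa. Of the 2 7SK genes, 7SKa had the peak of rank 85, lying 602 bp beyond its 3′ end, and a weaker one inside, 235 bp from its 5′ end, of rank 1496 (signal 169; 1305 and 1356). The window of the inner peak had a GC content of 73.3%, the maximum over all peaks, and that of the outer peak 22.8%. 7SKb had no candidate region in the pooled list.

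No peak was counted at the 6 single-copy snRNA genes LU, U11, U12, U4atac, U6atac and U7. The U7 gene, whose RNA serves histone mRNA 3′ ends, had a best candidate of rank 20523 and U11 of rank 6213 in the pooled list. The 3 genes of U3, the box C/D snoRNA needed for cleavage of ribosomal RNA precursors, also had no thresholded peak. U3:54Ab and U3:54Aa had candidates of rank 4265 and 13961 in the pooled list, and U3:9B had none.

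**Figure D5:**
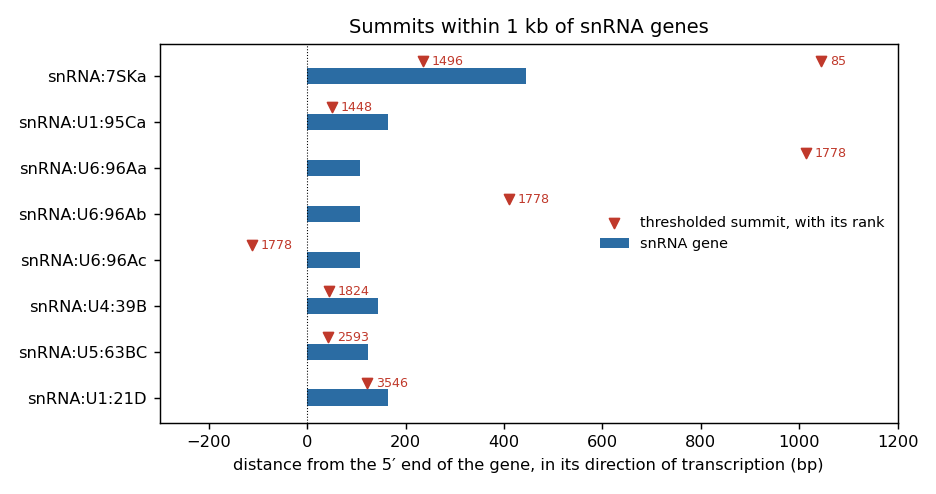
Thresholded summits (red triangles, labelled with their rank) within 1 kb of snRNA genes (blue bars), by distance in bp from the 5′ end of the gene in its direction of transcription. The summits at U1, U4 and U5 genes and 1 of the 2 at 7SKa fall inside the gene, and 1 summit is shared by the 3 U6 genes.

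Copies of snRNA genes are alike, which bears on where reads can be placed. More than 50% of the 36-base words of a gene occurred elsewhere in the genome sequence for 21 of the 32 snRNA genes and for 8 of the 269 snoRNA genes. Of the 21 repeated snRNA genes 6 had a peak, and of the other 11 it was 2, U4:39B, with 50% of its words repeated, and 7SKa, with none. How the authors treated reads that match several places is not given in the sources used here, and its part in these counts was not tested. The count of 8 snRNA genes also rests on the replicates together. The strongest 3587 regions of replicate 4 alone reached 7 snRNA genes (21.9%), against 7.16% of other short genes. Those of replicate 2 alone reached 4 (12.5%), against 9.18%, among them U11, which has no thresholded peak. The share from replicate 2 alone was thus close to its background.

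The sequence that MTF-1 is known to bind was searched in these peaks. Its core, TGCACNC or TGCGCNC on both strands within 50 bp of the summit, occurred in 8 of 51 peaks at host starts (15.7%; 7.02 to 28.6%), against 11.4% of all thresholded peaks and 8.27% of windows of the same length at protein-coding transcript starts. It occurred in 4 of 27 peaks at ribosomal protein hosts, 4 of 36 peaks at snoRNA genes (11.1%) and 1 of 7 peaks at snRNA genes, the one inside 7SKa. The share at host starts lay near that of all peaks. It was 23.5% within 100 bp of the summit, against 20.9% of all peaks, and 27.5% over the whole peak interval, against 29.0%. The site of the DNA replication-related element factor, TATCGATA, occurred in 3 host-start peaks (5.88%), against 1.56% of all peaks and 4.48% of coding starts. GGTCACAC, the site of the promoter factor M1BP, also occurred in 3 (5.88%), against 1.37% of all peaks and 4.68% of coding starts. The TATAAA word occurred in 4 (7.84%), against 15% of all peaks and 15.5% of coding starts, and in 0 of the 27 ribosomal protein hosts. These matches are descriptions of the letters in the windows.

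Genes for proteins that work with these RNAs had thresholded peaks at about the share of all protein-coding genes. Of a list of 51 such genes, 49 were found in the annotation, and 8 of the 49 had a summit within 1 kb of a start (16.3%; 7.32 to 29.7%), against 17.0% of all 13945 protein-coding genes. The strongest was at IntS6, a subunit of the Integrator complex that cuts snRNA 3′ ends, at rank 595, but the start of Rtel1 was nearer. bin3, which encodes the enzyme that caps 7SK RNA, had a peak of rank 634 and CycT, a subunit of P-TEFb, one of rank 3256.

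NHP2, which encodes a core protein of H/ACA particles, had a peak of rank 851 with its summit 193 bp from the start, and hoip, which encodes a protein of box C/D and U4 particles, was counted at rank 2140 for a summit 15 bp from the start of Pka-C1. pont and Nopp140, which act in snoRNP assembly, had peaks of rank 869 and 2141, and SmD3, a protein of the Sm ring, one of rank 1644. NHP2 and SmD3 had no candidate region of replicate 2 within 1 kb of a start, and Nopp140 had none of replicate 4. None of the 8 snRNP-specific protein genes or the 6 snRNP assembly genes had a peak. Of the list, 12 genes were reached by the strongest 3587 regions of replicate 4 alone (24.5%), against 16.5% of protein-coding genes that host no snoRNA gene in the same regions. Those of replicate 2 alone reached 10 (20.4%), against 16.2%. Both shares from a single replicate exceeded their backgrounds, but shares and backgrounds alike lay within 7.32 to 29.7%, the interval of the thresholded share.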

How the data were processed

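MTF-1-GFP ChIP-seq peak lists on dm6 were used. Per the deposited read-me, the authors called peaks and background for each replicate and on pooled alignments, and thresholded them by the irreproducible discovery rate. The signal of each region is the authors' deposited value, used only to rank regions within a list. The sources used here do not state its scale, the aligner, the peak caller or read depth.

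Gene models were those of Ensembl release 115 (BDGP6.54, the dm6 assembly) on chromosomes 2L, 2R, 3L, 3R, 4 and X, and sequence was RefSeq's. 0 regions lay beyond a chromosome end, and 1 of the 30000 regions of the pooled list lay on another sequence. Distances ran from summit to gene or to any transcript start. The nearest start to a summit was sought with those of snoRNA genes, snRNA genes and transposable elements left out. Ribosomal protein genes were taken by symbol, with sta. Intervals are exact Clopper-Pearson 95% intervals, for counting only. Named genes are the snRNA genes with a peak, the 15 hosts and 10 further snoRNA genes of best rank, hosts of 5 or more snoRNA genes, U3, U7 and 7SK, and protein-list genes with a peak. Other genes are named as examples at the edges of a count, chosen after their values were seen. Members and lists were chosen with earlier results of these data known. Counting was tested on simulated peaks. Alternatives were other distances, overlaps, stricter peaks and each replicate alone. Python 3.11.15, pandas 2.3.3, NumPy 2.4.6 and SciPy 1.17.1 were used.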

Additional observations from a re-analysis of the deposited data

How the results depend on the processing

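The share of snoRNA genes with a summit within 1 kb, 21.2%, was 7.81% within 500 bp, 63.6% within 5 kb, 1.49% where the peak had to overlap the gene and 30.3% by joined loci, and 42.4% over all candidate regions of the pooled list, an alternative chosen after seeing the data. Over those regions the snRNA share, 25%, was 59.4%, and the host share, 54.3%, was 86.2%. No share of other genes by overlap or by joined loci is given. Without ribosomal protein genes, also chosen after seeing the data, the host share was 36.9%. The snoRNA minus snRNA difference, -3.81 points, was 35.4 points within 5 kb, and leaving out 1 replicate gave 0.0581 to 9.80 points, the higher value without replicate 4, so its direction was not stable. The share of snoRNP and snRNP protein genes, 16.3%, was 34.7% within 5 kb, against 33.1% of protein-coding genes that host no snoRNA gene. Leaving out 1 replicate gave 21.9 to 22.3% for snoRNA genes, 12.5 to 21.9% for snRNA genes, 51.1 to 53.2% for hosts, 20.4 to 24.5% for the protein genes and 14 to 14.6% for the metal response element core at hosts. It gave median ranks of 612.5 to 1079 at snoRNA genes, 1482 to 2214 at snRNA genes and 310.5 to 702 at hosts. No paired analysis was possible because the series holds 1 group. Unknown read depth and the absence of an untagged line among the labels limit all counts.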
